A study of Mus musculus with 8 samples.

Results

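The genes described belong to the 4 mouse Hox clusters, Hoxa, Hoxb, Hoxc and Hoxd, which have 39 members in the table, and 38 of these are reported. They were taken from the 38610 symbols of the deposited table by name alone, as every symbol that begins with Hoxa, Hoxb, Hoxc or Hoxd and ends in a number, with no condition on level. Each library is RNA-seq of CJ9, a mouse embryonic stem cell line of strain 129S4/SvJae, harvested on day 4 after leukemia inhibitory factor (LIF), which holds such cells undifferentiated, was withdrawn from a medium with serum. The libraries fell into 3 groups, wild-type (WT, 2 libraries), Evx1as KO (3) and EVX1 KO (3), and the series title gives CRISPR as the method of knockout. The 3 groups share the line, the strain, LIF withdrawal and the day. The labels give neither the alleles nor the number of clones behind a group, and they do not say that libraries came from separate cultures. The p-values therefore measure only the spread between these libraries, which may be technical between some of them. In each edited group some replicates differed over a whole chromosome (8 in EVX1 KO and 14 in Evx1as KO, given at the end).

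Hox genes encode homeodomain transcription factors that give cells their position along the head to tail axis. The genes of a cluster stand in the order of their paralog groups, and in the embryo the low-numbered end is switched on first, in the primitive streak, with the high-numbered end following later and farther to the tail. Retinoic acid, Wnt signals and Cdx factors switch the clusters on, Polycomb complexes keep them silent in undifferentiated stem cells, and Hox proteins bind DNA together with the TALE partners Pbx and Meis.

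Evx1, a homeobox gene at the high-numbered side of the Hoxa cluster, and the noncoding RNA Evx1as (5730457N03Rik in the table) were the edited genes. The Evx1as level was 5.36 and 6.75 FPKM in the WT libraries, 0.0549, 0.104 and 0.0485 in Evx1as KO, and 5.01, 8.81 and 7.39 in EVX1 KO. FPKM gives the sequenced fragments of a gene relative to its length and to the size of the library. All 3 Evx1as KO libraries lay far below the other 5, as their label says. Evx1 itself stood at 22.0 and 31.2 FPKM in WT, 2.45, 3.84 and 0.541 in Evx1as KO, and 26.3, 20.8 and 31.7 in EVX1 KO. The EVX1 KO libraries thus overlapped WT in Evx1 transcript, so this transcript does not check their label, and "EVX1 KO" is used below as a label only.

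At day 4 most Hox genes were silent or close to it, and in WT a handful of members carried most of the signal. Of the 38 members, 5 reached 1 FPKM in at least 1 library: Hoxb1, Hoxb9, Hoxc6, Hoxc13 and Hoxd9. A further 3 reached 0.5 FPKM but not 1 (Hoxc4, Hoxd1 and Hoxd8), and 30 never reached 0.5, the highest value among those being 0.425 for Hoxc9 in WT replicate 2. Hoxc12, Hoxd11 and Hoxd12 were listed at 0 in all 8 libraries. The 3 members above 0 in every library were Hoxb9, Hoxc4 and Hoxc13.

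With "on" taken as at least 1 FPKM in every library of a group, 3 of the 38 members were on in WT (Hoxb1, Hoxb9 and Hoxc13), against 30.6% of all symbols. None of the 38 was on in Evx1as KO or in EVX1 KO, against 30.2% of all symbols in each of those groups. The share of symbols that were on was therefore nearly equal between the groups, while the Hox count was not. Without WT replicate 1, 5 members were on in WT. No test was run on these counts.

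Hoxb1, which gives hindbrain rhombomere cells and their facial motor neurons their identity, lies on chromosome 11 (96227071 to 96229567, positions as in the deposited table). It stood at 4.24 and 1.55 FPKM in WT, 0.0792, 0.150 and 0.140 in Evx1as KO, and 0, 0.138 and 0.654 in EVX1 KO. Every edited library was below both WT libraries, and the WT libraries themselves were far apart. Hoxb1 was the highest of the 38 members in WT replicate 1 and in no other library. Hoxd1, known from pain-sensing neurons, stood at 0.462 and 0.454 FPKM in WT, 0.0893, 0 and 0 in Evx1as KO, and 0.381, 0.702 and 0.295 in EVX1 KO. The Evx1as KO libraries were below all others and EVX1 KO spread around WT.

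Hoxb1 is known as a gene whose own product, with Pbx, maintains its expression through PBX-HOX type sites. Its 250 bases before the start site (RefSeq, GRCm38.p6, chr11:96365508-96365757, plus strand) are shown because they hold such letters in the tested member with the largest difference between WT and Evx1as KO. Capitals mark the match to TGATNNAT.
Hoxb1: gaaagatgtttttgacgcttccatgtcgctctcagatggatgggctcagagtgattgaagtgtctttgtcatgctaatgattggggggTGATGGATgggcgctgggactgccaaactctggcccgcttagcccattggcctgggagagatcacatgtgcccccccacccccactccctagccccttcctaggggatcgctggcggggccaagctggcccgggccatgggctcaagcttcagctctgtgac
The match begins at base -162 from the start. TGATNNAT, searched on both strands, was in 7.68% of 32851 such windows of RefSeq genes and in 4 of the 24 Hox windows (22 of the 38 members had at least 1 window). A match is a description of letters and not a measured site.

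The other members of paralog groups 2 to 4 were close to 0. Summed over group 2 (Hoxa2 and Hoxb2, hindbrain and face patterning) the level was at most 0.179 FPKM in any library, and over group 3 at most 0.2204. Group 4, which patterns the neck vertebrae, rested mainly on Hoxc4, on chromosome 15 (102864825 to 102867283). Hoxc4 had 0.575 and 0.484 FPKM in WT, 0.167, 0.236 and 0.368 in Evx1as KO, and 0.781, 0.655 and 0.620 in EVX1 KO. The 3 groups did not overlap, and Hoxc4 was the 1 member with every EVX1 KO library above both WT libraries, which 14.7% of the symbols above 0 in some library also were (7.85% of those in the Hox range of mean level). Hoxb4, known for its action in blood stem cells, had 0.217 and 0.183 FPKM in WT, 0.0629, 0.0594 and 0 in Evx1as KO, and 0.107, 0.0549 and 0.156 in EVX1 KO, so that both edited groups were below WT.

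Among the central groups 5 to 8, Hoxc6 and Hoxd8 were the highest. Hoxc6, a gene of the thoracic region on chromosome 15 (102839992 to 102842312), had 0.551 and 1.00 FPKM in WT, 0, 0 and 0.188 in Evx1as KO, and 0.544, 0.743 and 0.352 in EVX1 KO. Hoxd8, on chromosome 2 (74543545 to 74545364), had 0.312 and 0.613 FPKM in WT, 0 in all 3 Evx1as KO libraries, and 0.309, 0.633 and 0.200 in EVX1 KO. For both genes the Evx1as KO libraries were listed below all others and the EVX1 KO libraries overlapped WT. A listed 0 allows up to 3 fragments. For Hoxd8 that is 0.312 FPKM at the depth of WT replicate 1, the value of that library itself. The step behind this limit is the largest that fits, so the limit may be lower.

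Summed over the 11 genes of groups 5 to 8, the level was 2.05 and 2.77 FPKM in WT, 0.236, 0 and 0.573 in Evx1as KO, and 1.73, 2.30 and 1.56 in EVX1 KO. All Evx1as KO libraries were below all others, and in Evx1as KO replicate 2 each of the 11 central genes was listed at 0. EVX1 KO overlapped WT. Hoxb8, known from blood progenitors and the trunk, had 0.263 and 0.133 FPKM in WT, 0.0609, 0 and 0.0539 in Evx1as KO, and 0.260, 0.159 and 0.302 in EVX1 KO. Its window (RefSeq, GRCm38.p6, chr11:96281655-96281904, plus strand) is shown because it holds letters of both a Cdx type site and a PBX-HOX type site, as does that of Hoxd11, which was listed at 0 throughout.
Hoxb8: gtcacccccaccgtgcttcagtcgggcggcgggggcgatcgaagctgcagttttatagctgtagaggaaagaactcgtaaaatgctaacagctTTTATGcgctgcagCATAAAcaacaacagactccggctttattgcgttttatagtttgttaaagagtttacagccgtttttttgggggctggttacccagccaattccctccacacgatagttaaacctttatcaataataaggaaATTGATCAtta
Capitals mark TTTATG at base -157, the same letters on the other strand (CATAAA) at -143, and TGATNNAT on the other strand (ATTGATCA) at -11, and these matches share no base. TTTATG was in 10.8% of all windows and in 5 of the 24 Hox windows.

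The posterior groups 9 to 13 held the remaining members that were on in WT. Hoxb9, which with its paralogs shapes the ribs and the mammary gland, lies on chromosome 11 (96132643 to 96137907). Its level was 2.32 and 1.78 FPKM in WT, 0.119, 0.450 and 0.0527 in Evx1as KO, and 0.254, 0.676 and 0.690 in EVX1 KO. Both edited groups were below both WT libraries and overlapped each other. Hoxd9, on chromosome 2 (74535819 to 74538265), had 0.675 and 1.19 FPKM in WT, 0, 0.295 and 0.0692 in Evx1as KO, and 0.267, 0.751 and 0.259 in EVX1 KO. The Evx1as KO libraries were below WT, and EVX1 KO overlapped both other groups.

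Hoxc13, a gene of hair and nail at the high-numbered end of Hoxc on chromosome 15 (102751561 to 102759245), had 1.21 and 1.55 FPKM in WT, 0.267, 0.441 and 0.589 in Evx1as KO, and 0.227, 0.524 and 0.551 in EVX1 KO. The edited groups lay at the same level, both below WT. Its neighbours Hoxc12 and Hoxc11 were listed at 0 in both WT libraries, so the level of Hoxc13 was not shared by the adjoining genes. The other group 13 genes, which act in limb, gut and urogenital ends of the body, were lower. Hoxa13 had 0.344 and 0.289 FPKM in WT, 0 in all Evx1as KO libraries, and 0.114, 0.233 and 0.110 in EVX1 KO. Hoxd13 had 0.281 and 0.237 FPKM in WT, 0 in all Evx1as KO libraries, and 0, 0.0569 and 0 in EVX1 KO. For both genes every edited library was below WT. A count of 0 allows up to 3 fragments, which at the depth of WT replicate 1 is 0.345 FPKM for Hoxa13 and 0.169 for Hoxd13, so the WT level of Hoxa13 was itself at that limit.

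**Figure D1:**
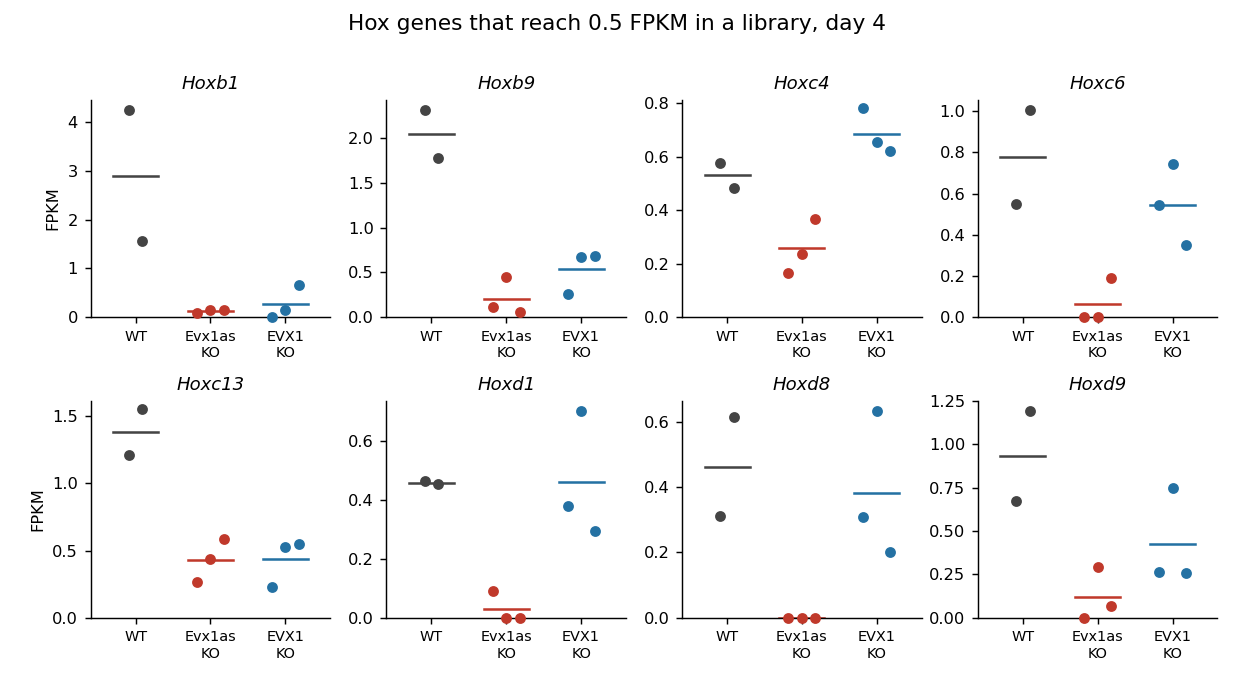
FPKM of the 8 Hox genes, of 38, that reach 0.5 FPKM in a library, with a point for each library (2 WT, 3 Evx1as KO, 3 EVX1 KO) and a line at the group mean, each panel on its own axis from 0. Hoxb1, Hoxb9 and Hoxc13 are below WT in both edited groups, while Hoxc4, Hoxc6, Hoxd1 and Hoxd8 are low in Evx1as KO alone.

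The low values of 33 members were whole multiples of a per-gene step, within 0.1 of a whole number, so the fragments behind them could be read off as a description. On that scale 18 members had at most 3 fragments in every library, 9 had a highest count of 4 to 9, and 6 had 10 or more in at least 1 library. Hoxb1 had 62 and 27 fragments in WT, 1, 2 and 2 in Evx1as KO, and 0, 2 and 10 in EVX1 KO. Hoxb9 had 45 and 41 in WT, 2, 8 and 1 in Evx1as KO, and 5, 13 and 14 in EVX1 KO. No level among these 33 members therefore rested on more than 62 fragments, and a listed 0 allows up to 3. A total was implied by the step and the length of a GENCODE transcript matched to the RefSeq entry. For 25 of the 33 it lay within 10% of the median over members. For the other members the counts are the smallest that match the steps. The transcript lengths behind the FPKM values are not given and may differ from those used. Hoxa10 and Hoxb3 stand on several lines and were not read in this way.

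Summed over the 38 members, the level was 13.4 and 11.7 FPKM in WT (12.5 ± 1.24, SD, n = 2), 1.23, 1.88 and 2.18 in Evx1as KO (1.76 ± 0.488, SD, n = 3), and 4.53, 6.63 and 5.55 in EVX1 KO (5.57 ± 1.05, SD, n = 3). The 3 groups did not overlap, with EVX1 KO in between. The order was the same among the less abundant members. The 33 genes that never reach 1 FPKM summed to 4.44 and 4.58 in WT, 0.764, 0.544 and 1.14 in Evx1as KO, and 3.24, 3.80 and 3.04 in EVX1 KO. In fragments, without Hoxb1 and Hoxb9, 31 members had 93 and 134 in WT, 13, 18 and 26 in Evx1as KO, and 60, 77 and 58 in EVX1 KO. Depth relative to WT replicate 1 was 1.19 in WT replicate 2 and 0.863 to 1.04 in the edited libraries, and its part in these sums was not tested. In such bulk samples, fewer cells that express a gene and less RNA per cell cannot be told apart.

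The clusters differed in how far EVX1 KO was from WT. The 10 Hoxa members summed to 0.879 and 0.810 FPKM in WT, 0.111, 0.156 and 0.213 in Evx1as KO, and 0.761, 0.461 and 0.543 in EVX1 KO. Hoxb summed to 7.92 and 4.18 in WT, 0.497, 0.659 and 0.369 in Evx1as KO, and 0.733, 1.42 and 2.11 in EVX1 KO. EVX1 KO was below WT in both clusters, by the narrower margin in Hoxa, and above all Evx1as KO libraries in both.

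Hoxc summed to 2.84 and 3.96 FPKM in WT, 0.531, 0.769 and 1.53 in Evx1as KO, and 1.92, 2.55 and 2.09 in EVX1 KO, again 3 groups that did not overlap. Hoxd summed to 1.79 and 2.71 in WT, 0.0893, 0.295 and 0.0692 in Evx1as KO, and 1.12, 2.20 and 0.799 in EVX1 KO. Only in the Hoxd sum did EVX1 KO overlap WT, and this difference between clusters was not tested. By paralog group, over the same 38 members, the WT mean was 3.35 FPKM for group 1, 3.26 for group 9 and 2.06 for group 13, and every other group had a mean of at most 0.895 in any of the 3 groups of libraries. In Evx1as KO the same paralog groups had 0.153, 0.392 and 0.432, and in EVX1 KO 0.723, 1.23 and 0.605.

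**Figure D2:**
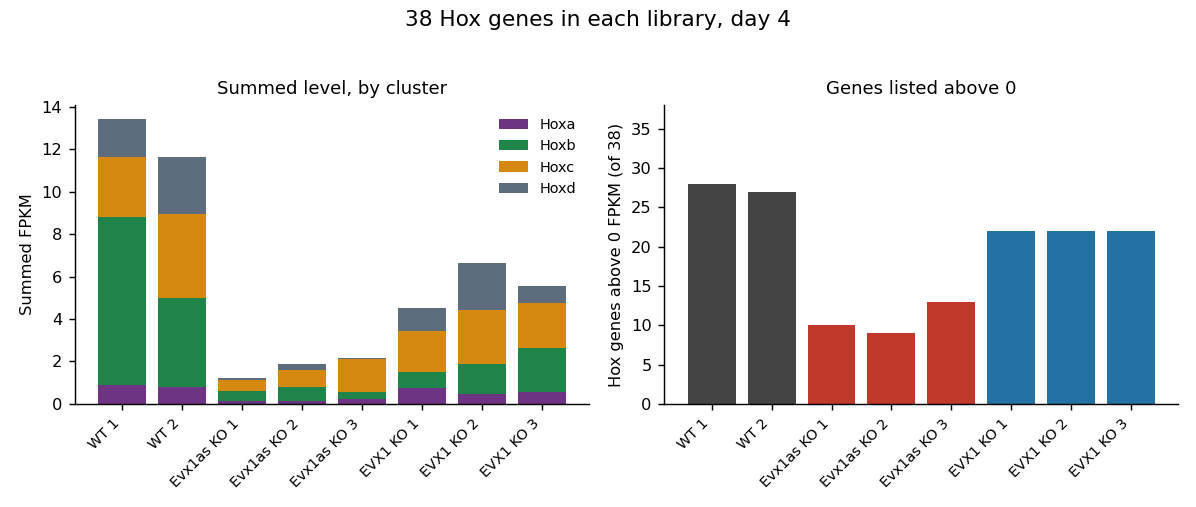
Left, summed FPKM of 38 Hox genes in each library, stacked by cluster. Right, the number of the 38 genes listed above 0 FPKM, which was 28 and 27 in WT, 10, 9 and 13 in Evx1as KO, and 22 in each EVX1 KO library.

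The number of members above 0 followed the same order, with 28 and 27 in WT, 10, 9 and 13 in Evx1as KO, and 22 in each EVX1 KO library. Over all symbols the share above 0 was nearly constant, from 47.9% to 50.0%. Listed at 0 in all 3 Evx1as KO libraries were 18 members, against 7 in all 3 EVX1 KO libraries and 6 in both WT libraries. These are counts of detection, and they move with the summed fragments.

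Evx1as KO against WT was then tested with limma on log2(FPKM + 1), over the 13188 genes that reached 1 FPKM in 2 or more libraries, with Benjamini-Hochberg adjustment over all of them. Of the 38 members 3 passed that limit, and all 3 were lower in Evx1as KO at an adjusted p under 0.05, where 11.4% of the genes tested were called lower and 13.0% higher. These 3, Hoxb1, Hoxb9 and Hoxc13, passed the limit only through the 2 WT libraries, so they had to differ and their count supports nothing. Hoxb1 fell by 1.70 ± 0.32 on the log2 scale (SE, adjusted p = 0.00693) and Hoxb9 by 1.34 ± 0.22 (adjusted p = 0.00436).

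Hoxc13 had the smallest change of the 3, and fell by 0.73 ± 0.20 (adjusted p = 0.0265). All 3 Evx1as KO libraries were below both WT libraries for each of the 3 genes. Without WT replicate 1 or WT replicate 2 none of the 38 members passed the limit on level, so there was no test. Hoxc13 lost its call without Evx1as KO replicate 1 (adjusted p = 0.0756) and at a pseudocount of 0.1 (0.0611). With a pseudocount of 1, fold changes of such low genes are understated.

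EVX1 KO against WT gave no call among the same 3 genes by limma, where 0.554% of the genes tested were called lower and 0.69% higher. All 3 had an unadjusted p under 0.05, but they passed the limit on level only through the WT libraries, so here too their values against WT support nothing. Hoxb1 had a log2 difference of -1.57 ± 0.32 (SE, adjusted p = 0.0547), Hoxb9 of -0.99 ± 0.22 (adjusted p = 0.0658) and Hoxc13 of -0.74 ± 0.20 (adjusted p = 0.0928). With array weights, which let libraries count unequally, Hoxb1 (adjusted p = 0.0160) and Hoxb9 (0.0296) were lower, and without EVX1 KO replicate 3 Hoxb1 was (0.0311), with the same limit to what these calls show.

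EVX1 KO against Evx1as KO, a comparison with no WT library, gave no call among the 3 by limma and 0 at an unadjusted p under 0.05, where 11.3% of the genes tested were called lower and 10.7% higher. Hoxb1 differed by 0.14 ± 0.29 on the log2 scale (SE, adjusted p = 0.764), Hoxb9 by 0.35 ± 0.20 (0.235) and Hoxc13 by 0.00 ± 0.18, the last changing sign with the settings used. With array weights Hoxb9 was called higher in EVX1 KO (adjusted p = 0.0328).

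**Figure D3:**
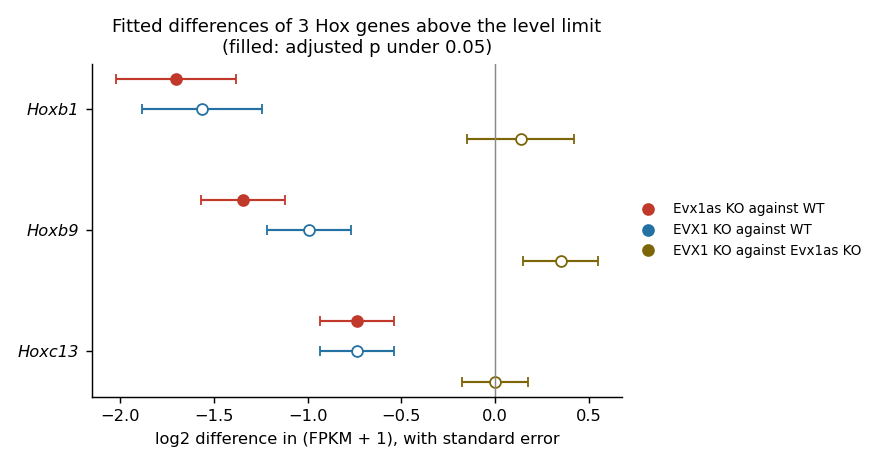
Fitted log2 differences in FPKM + 1 (x axis), with standard errors, for 3 Hox genes tested (y axis) in 3 comparisons, filled where the adjusted p is under 0.05. The values against WT lie below 0, which the limit on level fixed, since Hoxb1, Hoxb9 and Hoxc13 reach 1 FPKM in the WT libraries only.

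With no limit on level, 35 of the 38 members entered the fit with 23869 genes. The fitted difference of Evx1as KO against WT was below 0 for 31 of the 35 and above 0 for 3. Hoxb3, Hoxb13 and Hoxd10 entered through WT libraries alone, so they had to lie below 0 in both comparisons with WT. Hoxa2, Hoxa6 and Hoxc11 were listed at 0 in WT and could not lie below it. The share of all genes below 0 was not counted. The median of the 35 was -0.14 log2, against 0 for all genes. By limma 9 were called lower and none higher, where 5.03% of the genes were called lower and 5.4% higher: Hoxa13, Hoxb1, Hoxb7, Hoxb9, Hoxb13, Hoxc6, Hoxc13, Hoxd1 and Hoxd13. Several of these calls rested on few fragments. For Hoxb13, a gene of the prostate and hindgut region, the smallest count that matches its steps was 1 in each WT library and 0 elsewhere. Its call supports nothing, since it entered through WT alone. On the same scale Hoxa13 had 3 and 3 fragments in WT and Hoxd13 had 5 and 5, with 0 in each Evx1as KO library for both. Hoxb7 had 2 and 4 in WT and 0, 0 and 1 in Evx1as KO, with an adjusted p of 0.0499 by limma. At an unadjusted p under 0.05 there were 16 members. The share of all genes at that level was not counted, so nothing is read from this number.

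In the same fit EVX1 KO against WT had 26 members below 0 and 8 above, with a median of -0.06. Limma called none of the members, where 0.067% of the genes were called lower and 0.0503% higher. The 8 members at an unadjusted p under 0.05 again have no share of all genes to be read against. EVX1 KO against Evx1as KO had 24 above 0 and 8 below, a median of 0.07, and 2 members called higher, Hoxc4 and Hoxd1, where 4.33% of the genes were called higher and 4.54% lower. With no limit and a pseudocount of 0.1, a setting chosen after seeing the data, 8 members were lower in Evx1as KO than in WT, where 4.92% of the genes were. Hoxb7 (adjusted p = 0.0905 by limma) and Hoxc13 (0.0723) lost their calls there, and Hoxd8 (0.0199) gained a call. At that setting 4 were higher in EVX1 KO than in Evx1as KO (Hoxa13, Hoxc6, Hoxd1 and Hoxd8), where 4.49% of the genes were and 4.45% were lower.

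Counted by library rather than by a fit, 19 of the 38 members had all Evx1as KO libraries below both WT libraries, against 18.8% of the 23869 symbols above 0 in some library and 11.2% of those in the Hox range of mean level. None had all of them above WT (20.7% of the symbols, and 11.7% in the Hox range). In EVX1 KO 10 members had all libraries below WT (13.6%, and 9.23% in the Hox range of level). These were Hoxa5, Hoxa13, Hoxb1, Hoxb3, Hoxb4, Hoxb7, Hoxb9, Hoxb13, Hoxc13 and Hoxd13. Of these, 6 were in Hoxb, which holds 10 of the 38 members, and this split was not tested. For 8 members all Evx1as KO libraries were below all EVX1 KO libraries (13.3%, and 5.92% in the Hox range), and for none was it the other way round (14.7%, and 8.59% in the Hox range). Those 8 were Hoxa13, Hoxb6, Hoxb8, Hoxc4, Hoxc6, Hoxc8, Hoxd1 and Hoxd8. Both comparisons with WT share the WT libraries.

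Genes known to act on or with the clusters were read from lists of fixed members. Their counts are to be read against all genes tested, of which 11.4% were lower and 13.0% higher in Evx1as KO than in WT. In EVX1 KO 0.554% were lower and 0.69% higher than in WT, and 11.3% lower and 10.7% higher than in Evx1as KO. Of 6 Cdx and ParaHox genes 2 could be tested, and both were lower in Evx1as KO and higher in EVX1 KO than in Evx1as KO. Cdx2, a caudal factor that activates central and posterior Hox genes, had 9.37 and 14.4 FPKM in WT, 0.764, 1.66 and 0.676 in Evx1as KO, and 9.51, 11.01 and 9.60 in EVX1 KO. Cdx1 had 5.28 and 6.74 FPKM in WT, 0.861, 2.17 and 0.931 in Evx1as KO, and 3.67, 3.26 and 3.95 in EVX1 KO. The log2 difference of Evx1as KO against WT by limma was -2.67 ± 0.23 for Cdx2 (SE, adjusted p = 0.000550) and -1.63 ± 0.23 for Cdx1 (adjusted p = 0.00261). Neither was called in EVX1 KO against WT (adjusted p = 0.655 and 0.190), where Cdx1 alone had an unadjusted p under 0.05. Cdx4 was listed at 0 in 6 of the 8 libraries.

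Of 17 genes of retinoic acid supply, binding and removal, 11 were tested. Evx1as KO had 1 lower than WT, Cyp26a1, which breaks retinoic acid down, a count near the share over all genes (11.4%). It had 3 higher (13.0% of all genes), Dhrs3, which turns retinal back to retinol, Crabp2, which carries retinoic acid to its receptor, and the receptor Rxra. Cyp26a1 had 17.2 and 24.0 FPKM in WT, 0.844, 3.01 and 1.74 in Evx1as KO, and 29.03, 31.1 and 33.6 in EVX1 KO. Dhrs3 went the other way, with 5.65 and 4.20 in WT, 25.2, 13.2 and 29.9 in Evx1as KO, and 5.98, 5.40 and 3.29 in EVX1 KO. No gene of this list was called in EVX1 KO against WT by limma, and 3 (Crabp2, Rarg and Rxra) had an unadjusted p under 0.05. Between the edited groups Cyp26a1 was higher and Crabp2, Dhrs3 and Rarg were lower in EVX1 KO.

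Of 8 TALE cofactor genes 7 were tested. In Evx1as KO Meis1 was lower and Pbx2 higher than in WT, and in EVX1 KO against WT limma called no gene, with 0 at an unadjusted p under 0.05. Between the edited groups Meis3 was higher and Pbx2 and Pbx4 lower in EVX1 KO. Meis1 had 1.39 and 1.31 FPKM in WT, 0.368, 0.478 and 0.366 in Evx1as KO, and 0.606, 0.803 and 1.10 in EVX1 KO. Meis1 was thus in the same order of group means as the Hox sum.

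Genes of the silencing and activating complexes that were called differed by at most 0.81 on the log2 scale. Of 21 Polycomb genes listed, 20 were measured and 17 tested, and Ezh1, Ezh2, Jarid2 and Rbbp7 were higher and Phc2 lower in Evx1as KO than in WT, where 13.0% of all genes were higher and 11.4% lower. In EVX1 KO Jarid2, Rbbp4 and Rbbp7 were higher than in WT, where 0.69% of all genes were higher and 0.554% lower. Between the edited groups 4 were higher (Phc2, Rbbp4, Rbbp7 and Rnf2) and Kdm2b lower in EVX1 KO. Ezh2, the main H3K27 methyltransferase of these cells, had 16.7 and 16.4 FPKM in WT, 21.1, 22.1 and 23.9 in Evx1as KO, and 21.2, 24.3 and 21.9 in EVX1 KO. The median log2 difference of the tested Polycomb genes was 0.12 in each comparison with WT, against 0.02 for all genes.

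Of 11 Trithorax and H3K27 demethylase genes, all tested, Dpy30, Kdm6a, Kmt2c and Wdr5 were higher and Rbbp5 lower in Evx1as KO than in WT (13.0% and 11.4% of all genes), and limma called none in EVX1 KO against WT, where Kmt2c alone had an unadjusted p under 0.05. Between the edited groups Men1 and Rbbp5 were higher and Wdr5 lower in EVX1 KO. The median log2 differences were -0.05 and 0.05 in the comparisons with WT. The counts of both lists, and of the TALE list, moved by over 1.5 times with several settings, among them the replicates left out.

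Of the noncoding RNAs inside the clusters, 9 listed ones were measured and none of these passed the limit on level, so they are given by their values. Hoxb3os, antisense to Hoxb3, had 1.23 and 0.409 FPKM in WT, 0.0703, 0 and 0.228 in Evx1as KO, and 0, 0.246 and 0.155 in EVX1 KO, and without a stated strand setting reads of such a pair cannot be told apart. Haglr (6720416L17Rik), near Hoxd1, had 0.136 and 0.0573 in WT, 0 in all Evx1as KO libraries, and 0.134, 1.01 and 0.542 in EVX1 KO. Hotair and Halr1 were listed at 0 in all 8 libraries. Gm53, between Hoxb9 and Hoxb13 and not on that list, stood at 3.25 and 2.96 FPKM in WT, 1.38, 2.27 and 1.84 in Evx1as KO, and 2.64, 1.51 and 4.29 in EVX1 KO. For Gm53 all Evx1as KO libraries were below both WT libraries, as for many coding members and 18.8% of symbols above 0 in some library. EVX1 KO overlapped WT. Gm53 was above 1 FPKM in every library, beside coding neighbours of which Hoxb13 was at 0 in all edited libraries.

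**Figure D4:**
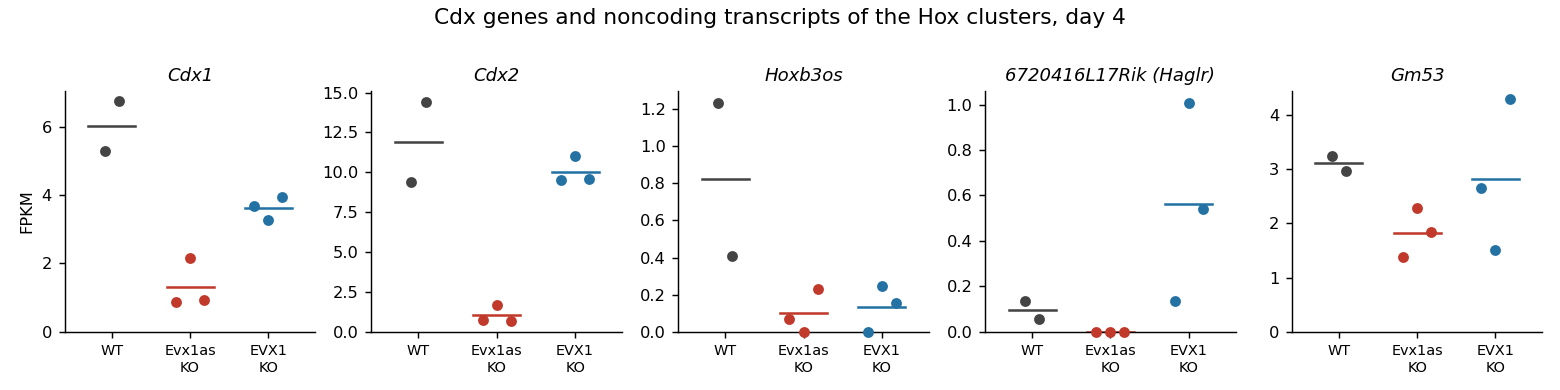
FPKM in each library (points) and group means (lines) of Cdx1, Cdx2 and 3 noncoding transcripts of the Hox clusters, each panel on its own axis from 0, for 2 WT, 3 Evx1as KO and 3 EVX1 KO libraries. Cdx2 in EVX1 KO lies between 9.51 and 11.01 and overlaps WT, Hoxb3os is low in both edited groups, and Gm53 is above 1 FPKM throughout.

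Of 11 genes that flank the clusters 9 were tested. Evx1 was lower and Hibadh higher in Evx1as KO than in WT, limma called none in EVX1 KO against WT (Mtx2 alone had an unadjusted p under 0.05), and Evx1 was higher and Hibadh lower in EVX1 KO than in Evx1as KO. Hibadh, a gene of valine breakdown beside Evx1, had 16.2 and 12.6 FPKM in WT, 29.3, 21.4 and 27.8 in Evx1as KO, and 21.6, 14.9 and 16.1 in EVX1 KO. Skap2, on the other side of Hoxa, had 9.06 and 6.65 FPKM in WT and 7.83 to 11.4 in the edited libraries, which overlap. The median level of the genes on each of the chromosomes of the clusters, 2, 6, 11 and 15, ran from -0.03 to 0.03 log2 (rounded) around its mean over the 8 libraries.

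Markers of cell state differed between Evx1as KO and WT, where the Hox genes did too. In EVX1 KO the summed streak markers overlapped WT, and single ones lay on both sides of it. Markers of the primitive streak, the site where Hox genes first come on, summed to 516 and 572 FPKM in WT, 113, 238 and 89.7 in Evx1as KO, and 632, 583 and 571 in EVX1 KO. Of 12 tested, 10 were lower in Evx1as KO than in WT (11.4% of all genes), with Msgn1, Mesp1, Mixl1 and Lhx1 the farthest. In EVX1 KO 10 were higher than in Evx1as KO (10.7% of all genes), a comparison that shares the Evx1as KO libraries. In EVX1 KO against WT limma called only Msgn1, a gene of presomitic mesoderm, as lower (0.554% of all genes). Msgn1 had 18.7 and 16.1 FPKM in WT, 0, 0.367 and 0 in Evx1as KO, and 2.32, 3.07 and 0.969 in EVX1 KO. Gsc, higher in EVX1 KO than in WT, had an unadjusted p under 0.05. Wnt3a had 0.706 and 0.510 FPKM in WT, 0 in all 3 Evx1as KO libraries, and 0.0996, 0.153 and 0.241 in EVX1 KO. Every EVX1 KO library was below both WT libraries for Msgn1, Wnt3 and Wnt3a (13.6% of the symbols above 0 in some library). For Eomes, Fgf8, Gsc and Lhx1 every one was above both (14.7%). Without WT replicate 1 or WT replicate 2, 6 streak markers were lower in Evx1as KO.

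Pluripotency markers summed to 494 and 621 FPKM in WT, 1151, 1018 and 1082 in Evx1as KO, and 656, 664 and 657 in EVX1 KO, with none of the 9 at 0 in any library. In Evx1as KO 6 of them were higher than in WT (13.0% of all genes), among them Dnmt3b, Nanog, Sox2 and Utf1, and Klf4 was lower. In EVX1 KO against WT limma called Fgf5 alone, as higher (0.69% of all genes). In that comparison Dnmt3b and Nanog (higher) and Esrrb and Klf4 (lower) also had an unadjusted p under 0.05. Dnmt3b, Pou5f1, Sox2 and Utf1 were lower in EVX1 KO than in Evx1as KO. Neural markers, of which 5 of 11 were tested, had Otx2, Sox1 and Zic2 higher in Evx1as KO than in WT (13.0% of all genes). Nes and Irx3 were tested and not called. Untested members were split. Pax6 had 0.163 and 0.0917 FPKM in WT and 0.441, 0.476 and 0.917 in Evx1as KO. Pax3 went the other way, with 0.0811 and 0.445 in WT and 0 in all Evx1as KO libraries. So did Zic1, with 0.123 and 0.138 in WT and 0, 0 and 0.0419 in Evx1as KO. Otx2 and Zic2 were higher in EVX1 KO than in WT (0.69% of all genes). Sox1 and Zic2 were lower in EVX1 KO than in Evx1as KO (11.3% of all genes). The neural markers summed to 99.7 and 115 FPKM in WT, 180.0 to 201 in Evx1as KO and 115 to 145 in EVX1 KO. Of the hindbrain gene Egr2, which accompanies Hox expression there, the highest value was 0.755 FPKM. Fibroblast or feeder markers, a source of Hox RNA in mixed cultures, summed to 29.2 and 42.8 FPKM in WT, 16.7 to 26.9 in Evx1as KO and 29.4 to 38.2 in EVX1 KO. Col3a1 and Pdgfra were lower in Evx1as KO than in WT, limma called none in EVX1 KO against WT (Twist2 had an unadjusted p under 0.05), and Col1a1, Pdgfra and Twist2 were higher in EVX1 KO than in Evx1as KO. The part of these markers, and of the cells that carry them, in the Hox differences was not tested.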

How the data were processed

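The authors deposited 1 table of FPKM values for the 8 libraries, made from poly(A) RNA with a TruSeq Stranded mRNA kit per the labels' protocols. The submitters' processing notes list CASAVA, TopHat2 2.0.11, mm10 and mm9, and no role of any of these is stated in the form held here. Not given in the sources used here are how FPKM was computed, from which annotation, and whether counting used strand. None of the 38 members reported (0) overlapped its GRCm38.p6 position, so the table's positions are not of that build and are given as deposited. Of 45772 lines, 3527 were blank, and symbols on several lines with equal values were used once.

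FPKM was not rescaled. The 13188 genes that reached 1 FPKM in 2 or more libraries were kept. Log2(FPKM + 1) of all 8 libraries entered 1 model with a mean per group in limma 3.58.1 (R 4.3.3), with empirical Bayes and an intensity trend, two-sided, and Benjamini-Hochberg adjusted p under 0.05 was a call. The steps were tested on simulated data. Other steps used Python 3.11.15, pandas 2.3.3, numpy 2.4.6 and matplotlib 3.10.9. The table gives no counts. Fragments were read from the steps between low values, trying divisors up to 4, and cover counting error only.

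Of the 39 members 1, and 3 genes and 1 noncoding RNA of the lists, are not reported here, and all counts and sums of members and lists leave them out, while the fits across all genes keep them. Members and gene lists were chosen with earlier results of these data known. Members reaching 1 FPKM were named, with others described by list. Further members, such as Hoxc4, Hoxd1, Hoxd8, Hoxa13 and Hoxd13, and noncoding transcripts were named after their values were seen. Of each list, called genes were named where 5 or fewer, otherwise the 4 with the largest change. Alternatives were pseudocounts of 0.1 and 0.5, other limits on level, median-ratio scaling, a replicate block, array weights, only the 2 groups compared, and leaving out each library or the lines marked LOWDATA. RefSeq windows were searched for motifs on both strands.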

Additional observations from a re-analysis of the deposited data

How the results depend on the processing

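The 3 members called lower in Evx1as KO than in WT were 9 with no limit on level, and 8 with no limit and a pseudocount of 0.1, a setting chosen after seeing the data. Leaving out a replicate of Evx1as KO or EVX1 KO gave 2 to 3. For EVX1 KO against WT array weights called 2 lower, and leaving out a replicate gave 0 to 1. For EVX1 KO against Evx1as KO array weights called 1 higher, no limit on level 2, and no limit with a pseudocount of 0.1 called 4. A limit on the mean level, a limit of 5 FPKM, or leaving out a WT replicate left none of the 38 members to test. Members on in WT were 5 at 0.5 FPKM, 0 at 2 FPKM, and 3 to 5 with a replicate left out, and in EVX1 KO 1 was on at 0.5 FPKM. The Hoxc13 difference between the edited groups turned from -0.00 to 0.0624 with array weights and ran from -0.0857 to 0.108 with a replicate left out, and that of Hoxb1 from -0.0733 to 0.290. Of the values for single members under an alternative, 120 kept direction and side of the threshold, 3 lost a call, 4 gained a call and 5 turned sign, and of the list counts 152 moved by over 1.5 times and 1102 did not. Over all genes, EVX1 KO against WT had 73 lower and 91 higher, but 541 and 607 with array weights, 16 and 12 with no limit on level, 19 and 16 with only the 2 groups compared, and 1 and 5 without WT replicate 1. Deviations from the group mean correlated at -0.10 to 0.08 between libraries of equal replicate number and at -0.16 to 0.16 between other numbers. With 2 or 3 libraries a group, whose deviations depend on each other, this cannot exclude a pairing by number. With a replicate block 3 members were lower in Evx1as KO than in WT, 0 in EVX1 KO, and 0 were higher in EVX1 KO than in Evx1as KO, and over all genes EVX1 KO against WT had 14 lower and 14 higher. Low depth limits most members to a few fragments, and the cause of these shifts was not tested.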

Other observations

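For 2 unnamed transcripts inside the Hoxb cluster, the Evx1as KO libraries did not all lie below WT. XLOC_004381, a transcript with no gene name at the Hoxb13 side of the Hoxb cluster, had 0 and 0.402 FPKM in WT, 0.569, 1.61 and 1.01 in Evx1as KO, and 0, 1.00 and 0 in EVX1 KO. All Evx1as KO libraries were above both WT libraries, as for 20.7% of the symbols above 0 in some library (11.7% in the Hox range of mean level). None of the 38 coding members had all of them above WT. XLOC_003462, between Hoxb9 and Hoxb13 and overlapping Gm53, had 2.41 and 1.65 FPKM in WT, 1.28, 2.17 and 2.49 in Evx1as KO, and 1.09, 1.56 and 1.48 in EVX1 KO, so that Evx1as KO overlapped WT. Strand was not given, and these were named after their values were seen.

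Meis2, a TALE cofactor gene under the level limit, had 0.999 and 0.859 FPKM in WT, 0.301, 0.351 and 0.807 in Evx1as KO, and 0.317, 0.147 and 0.273 in EVX1 KO, with both edited groups below WT. Cbx8, a Polycomb gene, had 0.320 and 0.628 FPKM in WT, 0 in all Evx1as KO libraries, and 0.528, 0.757 and 0.410 in EVX1 KO.

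Outside the Hox chromosomes, the median level of chromosome 8 was -0.38 and -0.30 log2 in EVX1 KO replicates 1 and 2 but 0.08 in replicate 3, and that of chromosome 14 was -0.36 and -0.34 in Evx1as KO replicates 2 and 3 but 0.13 in replicate 1, relative to its mean over libraries. These replicates of 1 group thus differed from each other over whole chromosomes.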
